A study of Mus musculus with 18 samples.

Results

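Cell cycle and proliferation genes were followed in white fat of mice kept on a rotating light schedule. The group holds 32 genes, taken from a list of names and not by a threshold on their values, and all 32 were found among the 24091 gene symbols of the epididymal fat table and the 51826 gene identifiers of the inguinal fat table. By role they are 8 genes of DNA replication in S phase, 4 cyclins and cyclin-dependent kinase genes, 2 genes of ubiquitin-dependent exit from mitosis, 6 mitotic kinase and checkpoint genes, 8 kinesin, spindle and kinetochore genes, and 4 genes of chromosome structure and other proliferation markers.

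A dividing cell first licenses and copies its DNA and then condenses, aligns and separates its chromosomes, and most of the genes for these steps are transcribed only in cells that are cycling. Genes of DNA replication are transcribed from late G1 under E2F factors, and genes of mitosis peak in G2 and M phase under complexes that include NF-Y, B-MYB and FOXM1. Mature adipocytes rarely divide, so that in white fat these transcripts are usually attributed to precursor cells, macrophages, lymphocytes and vascular cells. In a bulk sample, fewer cells of a type and less RNA per cell cannot be told apart, and that holds for every level below.

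All animals were C57BL/6 mice. Shiftwork mice lived for 24 weeks on a week of 4 days under the regular light cycle and 3 days under the reversed one, and control mice stayed on 12 h of light and 12 h of dark. Fat was taken at ZT12 or ZT3, hours counted from lights-on in the regular cycle (5 pm and 8 am in the labels). A total of 6 groups of 3 samples resulted: epididymal white adipose tissue (eWAT, a visceral depot beside the testis) of shiftwork and control mice at ZT12, the same of shiftwork and control mice at ZT3, and inguinal white adipose tissue (iWAT, a subcutaneous depot that holds a lymph node) of shiftwork and control mice at ZT3. Whether the 3 samples of a group came from separate animals is not in the labels, so the p-values below measure only the spread between these samples.

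The libraries held 20352008 to 72276733 assigned reads in eWAT and 28544338 to 55639501 in iWAT, and levels are given as CPM, the reads of a gene scaled to the library's total. A count of 3 reads corresponded to 0.0415 to 0.147 CPM in an eWAT library and, in an iWAT library, to 0.0539 to 0.105 CPM, which covers counting error only. Some libraries held RNA of neighbouring tissue, as their marker genes show. ZT3 shiftwork replicate 3 of eWAT had 1375 CPM of Prm2, the protamine of late spermatids, against 0.188 to 18.7 CPM in the other 11 eWAT libraries, and its summed spermatid markers stood at 7453 CPM against 50.8 to 141 CPM. ZT3 control replicates 1 and 3 of eWAT had 12585 and 12068 CPM of vas deferens and epididymis markers, against 10.5 CPM in ZT3 control replicate 2. The B cell gene Cd79a, part of the antigen receptor, had 2.33, 5.57 and 0.310 CPM in shiftwork iWAT, against 134, 268 and 2.11 CPM in control iWAT, so that control replicates 1 and 2 carried lymph node transcripts and control replicate 3 did not. Summed adipocyte markers were high in all 18 libraries, from 16152 to 42651 CPM.

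**Figure D1:**
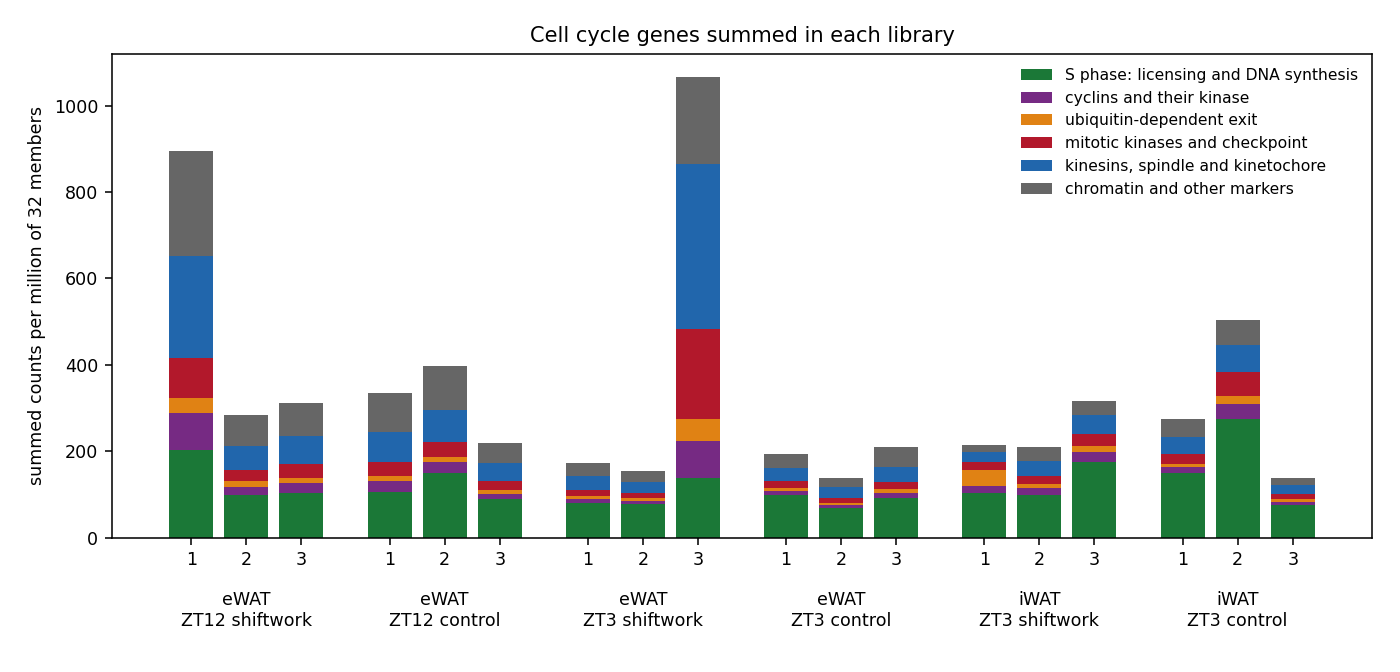
Summed CPM of the 32 genes in each of the 18 libraries, stacked by role, with replicate numbers under the bars and no error bars because each bar is 1 library. The eWAT libraries ZT3 shiftwork replicate 3 and ZT12 shiftwork replicate 1 reached 1067 and 895 CPM, while the other 10 eWAT libraries lay between 137 and 398 CPM.

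Summed over the 32 genes, the level was 895, 284 and 311 CPM in ZT12 shiftwork eWAT, against 334, 398 and 219 CPM in ZT12 control eWAT. At ZT3 it was 174, 154 and 1067 CPM in shiftwork eWAT, against 195, 137 and 209 CPM in control eWAT. In iWAT it was 214, 209 and 316 CPM in shiftwork libraries, against 276, 504 and 138 CPM in control libraries. In every comparison of schedules the groups overlapped, and in both shiftwork groups of eWAT 1 library stood far above the other 2.

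Levels per transcript length, the only scale on which genes can be set against each other, were low throughout. Pcna, the sliding clamp of the replicative polymerases, was the highest of the 32 in all 6 groups. It averaged 15.8 ± 3.66 FPKM in ZT12 shiftwork eWAT and 15.3 ± 3.37 FPKM in ZT12 control eWAT, and 13.4 ± 2.46 FPKM in ZT3 shiftwork eWAT and 12.1 ± 0.730 FPKM in ZT3 control eWAT (SD, n = 3 each). In iWAT, where the deposited unit is RPKM, Pcna averaged 8.97 ± 2.26 in shiftwork and 9.57 ± 2.36 in control libraries (SD, n = 3 each). In ZT3 control eWAT the next in order were Mcm6 at 3.44 ± 0.580, Mcm3 at 3.32 ± 0.539 and Ube2c at 3.23 ± 0.522 FPKM (SD, n = 3 each), and these 3 did not differ beyond their spread. The lowest there were Ccnb1 at 0.300 ± 0.0198, Bub1 at 0.283 ± 0.0371 and Cenpf at 0.235 ± 0.0626 FPKM (SD, n = 3 each), which did not differ beyond their spread either. The tables also list close copies of some members, among them Tyms-ps for eWAT and Ccnb2-ps, Pcna-ps1 and Pcna-ps2 for iWAT, so the levels of Tyms, Ccnb2 and Pcna are uncertain to the extent that reads were shared with a copy.

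The members also share sequence in front of their transcription starts. RefSeq promoters of build GRCm38.p6, a patch release of the assembly that the submitters' processing notes name, were available for 27 members as 28 windows, and 5 members had no window (Stmn1, Aurkb, Ccna2, Tpx2 and Kif20a). Motifs were searched on both strands in the 250 bases before the start. CCAAT, the letters bound by NF-Y, was present in 24 of the 28 windows (85.7%), against 33.8% of all 32851 windows of the same length. TTTGAA, the letters of the cell cycle homology region, was present in 10 of 28 (35.7%), against 16% of all windows. It occurred in 1 of 8 windows of S phase members and in 9 of 20 windows of the other members. TTTGGCGC, an E2F motif, was present in 2 of 28, those of Mcm5 and Mcm6, against 0.417% of all windows, and TTTCCCGC, another E2F motif, in 0 of 28, against 0.895%. These counts describe letters and not bound factors.

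The 250 bases before the annotated start are printed 5′ to 3′ on the coding strand (the minus strand in all 5). They belong to 3 genes of G2 and M phase with both CCAAT and TTTGAA and to 2 S phase genes without TTTGAA, picked as examples. Members with and without TTTGAA both stood high in eWAT ZT3 shiftwork replicate 3. Relative to the mean of its 2 replicates, Ccnb2 (47.8-fold) carries TTTGAA, and Bub1 (51.9-fold) and Cenpf (44.7-fold) lack it. Ube2c (1.78-fold) and Hmgb2 (3.71-fold) carry it too. A link of motif and level was not tested. Capitals mark matches to the 4 motifs on either strand, and no 2 matches overlap. Ccnb2, at chr9:70421555-70421804, and Cdk1, at chr10:69352913-69353162, encode a mitotic cyclin and its kinase. Top2a, at chr11:99024190-99024439, encodes topoisomerase II alpha, which untangles sister chromatids. Mcm6, at chr1:128359706-128359955, encodes a subunit of the replicative helicase, and Tyms, at chr5:30073626-30073875, thymidylate synthase. The window of Tyms holds none of the 4 motifs.
Ccnb2: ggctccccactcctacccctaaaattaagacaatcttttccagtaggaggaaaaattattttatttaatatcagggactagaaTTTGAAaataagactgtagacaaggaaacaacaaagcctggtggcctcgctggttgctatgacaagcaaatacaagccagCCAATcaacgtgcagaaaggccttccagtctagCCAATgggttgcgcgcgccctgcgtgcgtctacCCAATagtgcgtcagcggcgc
Cdk1: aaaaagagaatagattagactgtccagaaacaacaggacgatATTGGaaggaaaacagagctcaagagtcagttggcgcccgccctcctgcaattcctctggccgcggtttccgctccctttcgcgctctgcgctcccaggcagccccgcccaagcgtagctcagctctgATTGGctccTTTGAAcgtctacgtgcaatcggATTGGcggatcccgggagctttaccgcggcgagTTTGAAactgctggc
Top2a: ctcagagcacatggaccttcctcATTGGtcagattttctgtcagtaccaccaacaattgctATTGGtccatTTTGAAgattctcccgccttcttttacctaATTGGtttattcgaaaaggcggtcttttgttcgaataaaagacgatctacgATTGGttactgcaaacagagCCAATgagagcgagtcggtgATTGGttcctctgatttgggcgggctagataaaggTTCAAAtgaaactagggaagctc
Mcm6: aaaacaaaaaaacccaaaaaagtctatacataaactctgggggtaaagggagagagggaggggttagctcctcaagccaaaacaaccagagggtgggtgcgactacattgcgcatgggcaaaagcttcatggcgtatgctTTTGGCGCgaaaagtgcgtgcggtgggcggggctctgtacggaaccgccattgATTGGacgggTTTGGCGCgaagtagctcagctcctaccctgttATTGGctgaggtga
Tyms: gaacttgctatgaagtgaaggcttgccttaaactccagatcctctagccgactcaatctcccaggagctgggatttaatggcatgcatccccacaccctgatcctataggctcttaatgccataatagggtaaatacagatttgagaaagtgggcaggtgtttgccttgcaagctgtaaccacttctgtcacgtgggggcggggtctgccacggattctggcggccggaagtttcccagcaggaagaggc

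Mitotic genes stood further above their replicates than S phase genes did in the eWAT library with testis transcripts. ZT3 shiftwork replicate 3 was compared with the mean of the other 2 shiftwork libraries at ZT3, a description of 1 library with no test. The ratio over the 32 genes had a median of 6.78 and ran from 1.13 to 51.9, and it was above 2-fold for 26 of them, against 27.37% of 14430 genes. For the 8 S phase genes the median ratio was 1.75 and 3 were above 2-fold. For the 6 mitotic kinase and checkpoint genes the median was 17.2, and for the 8 kinesin, spindle and kinetochore genes 13.8, with all 6 and all 8 of them above 2-fold.

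Bub1, a kinase of the spindle assembly checkpoint, had the highest ratio. It stood at 9.17, 2.21 and 2.95 CPM in ZT12 shiftwork eWAT, against 3.68, 4.36 and 1.68 CPM in ZT12 control eWAT. At ZT3 it stood at 1.08, 1.16 and 58.1 CPM in shiftwork eWAT, against 1.11, 1.02 and 1.47 CPM in control eWAT. The 2 shiftwork libraries at ZT3 with low spermatid markers lay inside the range of the 3 controls, and only replicate 3 lay outside. Ccnb2, which encodes cyclin B2, had 1.58, 0.695 and 54.3 CPM in ZT3 shiftwork eWAT, against 1.74, 1.24 and 2.51 CPM in ZT3 control eWAT. Cenpf, a kinetochore protein, had 2.16, 1.30 and 77.3 CPM in ZT3 shiftwork eWAT, against 1.88, 1.20 and 3.05 CPM in ZT3 control eWAT. In both genes, too, replicate 3 alone stood above every control. Tyms was the opposite case, with 4.19, 5.19 and 5.28 CPM in ZT3 shiftwork eWAT, against 5.17, 4.49 and 5.45 CPM in ZT3 control eWAT. Replicate 3 was not set apart for Tyms, nor for Tk1, the thymidine kinase of nucleotide salvage, which had 1.22, 0.88 and 1.32 CPM in ZT3 shiftwork eWAT, against 1.20, 0.577 and 0.786 CPM in ZT3 control eWAT.

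Other genes of mitosis were also high in this library. Cdc20, the activator of the anaphase-promoting complex, had 0.765, 1.39 and 39.7 CPM in ZT3 shiftwork eWAT, against 2.10, 1.29 and 2.90 CPM in ZT3 control eWAT. Aurka, the kinase of the spindle poles, had 2.48, 2.18 and 53.3 CPM in ZT3 shiftwork eWAT, against 2.37, 2.31 and 3.54 CPM in ZT3 control eWAT. Plk1, a kinase of mitotic entry and spindle assembly, had 1.40, 1.30 and 36.8 CPM in ZT3 shiftwork eWAT, against 1.67, 0.888 and 1.92 CPM in ZT3 control eWAT. Replicate 3 alone exceeded the controls in each of these 3 genes, whereas for Ube2c, Nusap1, Cenpe and Ccnb1 at least 1 other shiftwork library did so too. The ratio was 1.78 for Ube2c, 5.15 for Nusap1, 22.2 for Cenpe and 4.15 for Aurkb. The ratio of replicate 3 to its replicates was 20.3 for Kif20a and 6.96 for Kif23, kinesins of cytokinesis, 18.5 for Prc1, which bundles the microtubules of the central spindle, and 9.15 for Kif11, the kinesin that separates the spindle poles. It was 9.01 for Tpx2, a spindle assembly factor that activates Aurka, 11.4 for Birc5, the survivin subunit of the chromosomal passenger complex, and 6.60 for Bub1b, a checkpoint kinase homologue. Cyclins differed among themselves, with 14.3 for Ccnb1, a mitotic cyclin, and 2.75 for Ccna2, the cyclin A of S and G2 phase.

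Among replication genes the ratio was 1.88, 2.04, 2.24 and 1.63 for Mcm2, Mcm3, Mcm5 and Mcm6, subunits of the helicase, 1.39 for Pcna, and 3.06 for Rrm2, the small subunit of ribonucleotide reductase. Rrm2 had 3.24, 2.73 and 9.14 CPM in ZT3 shiftwork eWAT, against 5.85, 2.22 and 7.32 CPM in ZT3 control eWAT, so that replicate 3 lay only a little above the highest control. Hmgb2, a chromatin protein, had a ratio of 3.71. Stmn1, a microtubule-destabilising protein, is included in the counts and medians over the 32 genes, and no level of its own is given.

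Markers of spermatogonia and spermatocytes, the dividing cells of the testis, summed to 2143 CPM in the same library, against 53.8 to 143 CPM in the other 11 eWAT libraries. Ccna1, the germ cell cyclin A, had 49.7 CPM there and 0 to 0.489 CPM in the other 11. Summed macrophage markers, at 1009 CPM, lay between those of its replicates (1218 and 693 CPM), and B cell markers, at 51.8 CPM, were above its replicates (8.87 and 5.88 CPM) but inside the range of the ZT3 controls (39.9 to 72.4 CPM). The part of germ cells in the levels of the 32 genes was not tested.

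**Figure D2:**
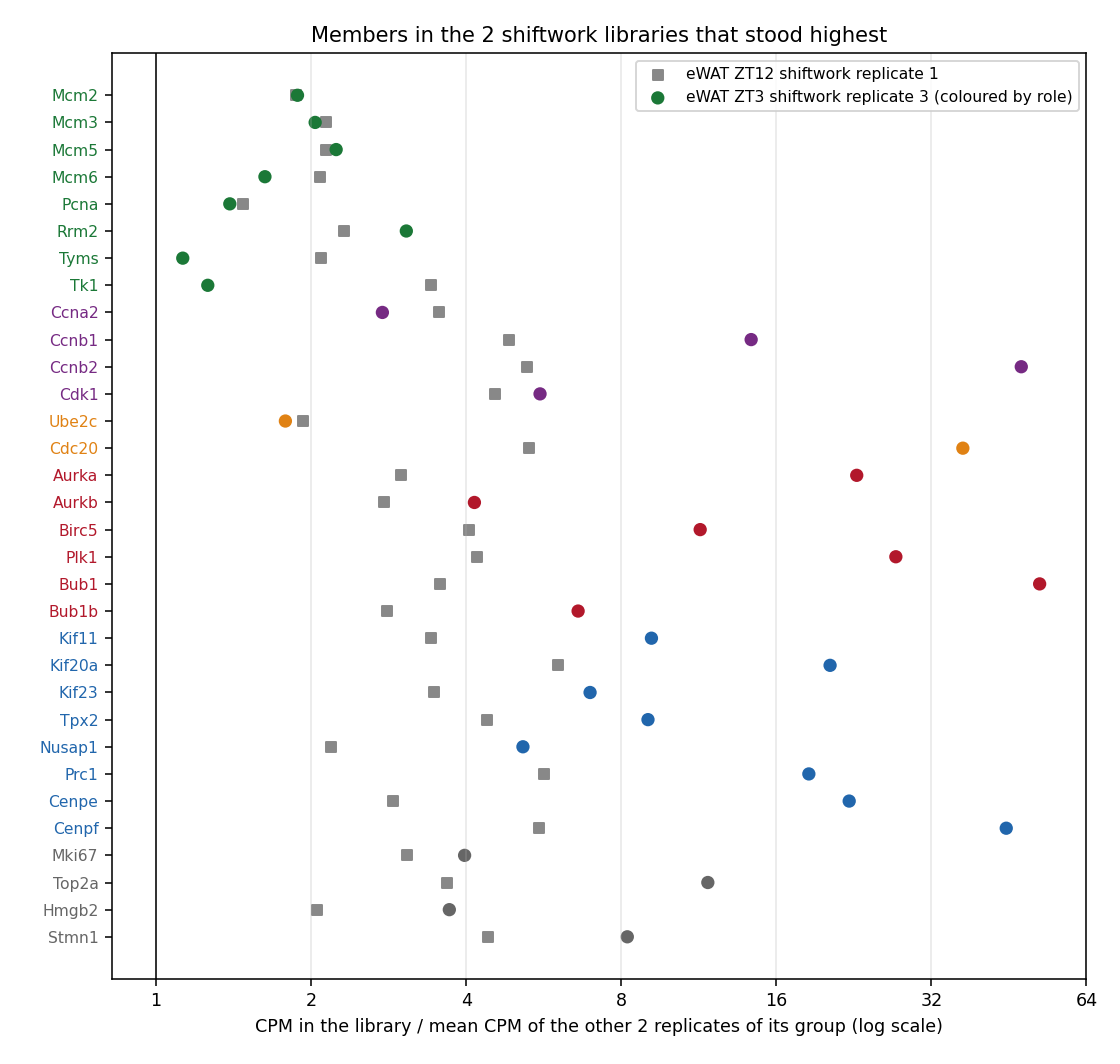
Ratio, on a log scale, of each gene's CPM in 1 library to the mean CPM of the other 2 replicates of its group. Circles, coloured by role from S phase genes at the top to chromosome and other markers at the bottom, show eWAT ZT3 shiftwork replicate 3, where ratios ran from 1.13 (Tyms) to 51.9 (Bub1). Grey squares show eWAT ZT12 shiftwork replicate 1, where ratios ran from 1.48 (Pcna) to 6.02 (Kif20a).

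ZT12 shiftwork replicate 1 of eWAT was the other library with high levels, and there all roles were high. As in the library with testis transcripts, S phase genes had the lowest median ratio of the roles, but the roles lay closer together. Relative to its 2 replicates the 32 genes had a median ratio of 3.42 with a range of 1.48 to 6.02, and 29 of 32 were above 2-fold, against 7.181% of 14692 genes. The median ratio was 2.11 for S phase genes, 4.70 for cyclins and their kinase, 3.27 for mitotic kinases and checkpoint genes and 3.93 for kinesin, spindle and kinetochore genes. Of the 12 eWAT libraries, ZT12 shiftwork replicate 1 was the highest for 15 genes and ZT3 shiftwork replicate 3 for 17. With ZT3 shiftwork replicate 3 set aside, ZT12 shiftwork replicate 1 was the highest for all 32.

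Top2a stood at 91.6, 23.4 and 26.6 CPM in ZT12 shiftwork eWAT, against 31.6, 36.4 and 13.9 CPM in ZT12 control eWAT. Mki67, which coats mitotic chromosomes and marks cycling cells, stood at 145, 47.7 and 47.1 CPM in ZT12 shiftwork eWAT, against 55.2, 64.9 and 29.6 CPM in ZT12 control eWAT. In both genes replicate 1 exceeded every control and the other 2 shiftwork libraries lay within the control range. The same library was also high in summed macrophage markers, with 2575, 1488 and 1296 CPM in ZT12 shiftwork eWAT, against 1765, 2070 and 1196 CPM in ZT12 control eWAT. Its Prm2 level was 18.7 CPM and its summed spermatid markers reached 141 CPM, the second highest of the 12 libraries, while Ccna1 was at 0.230 CPM. Over the ZT12 shiftwork libraries of eWAT, summed intestine markers ranged over 9.08 to 162 CPM and erythroid markers over 613 to 3002 CPM. In ZT12 control eWAT they ranged over 8.68 to 17.6 CPM and 495 to 821 CPM. Whether macrophages, germ cells, intestine or blood had a part in the levels of replicate 1 was not tested.

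**Figure D3:**
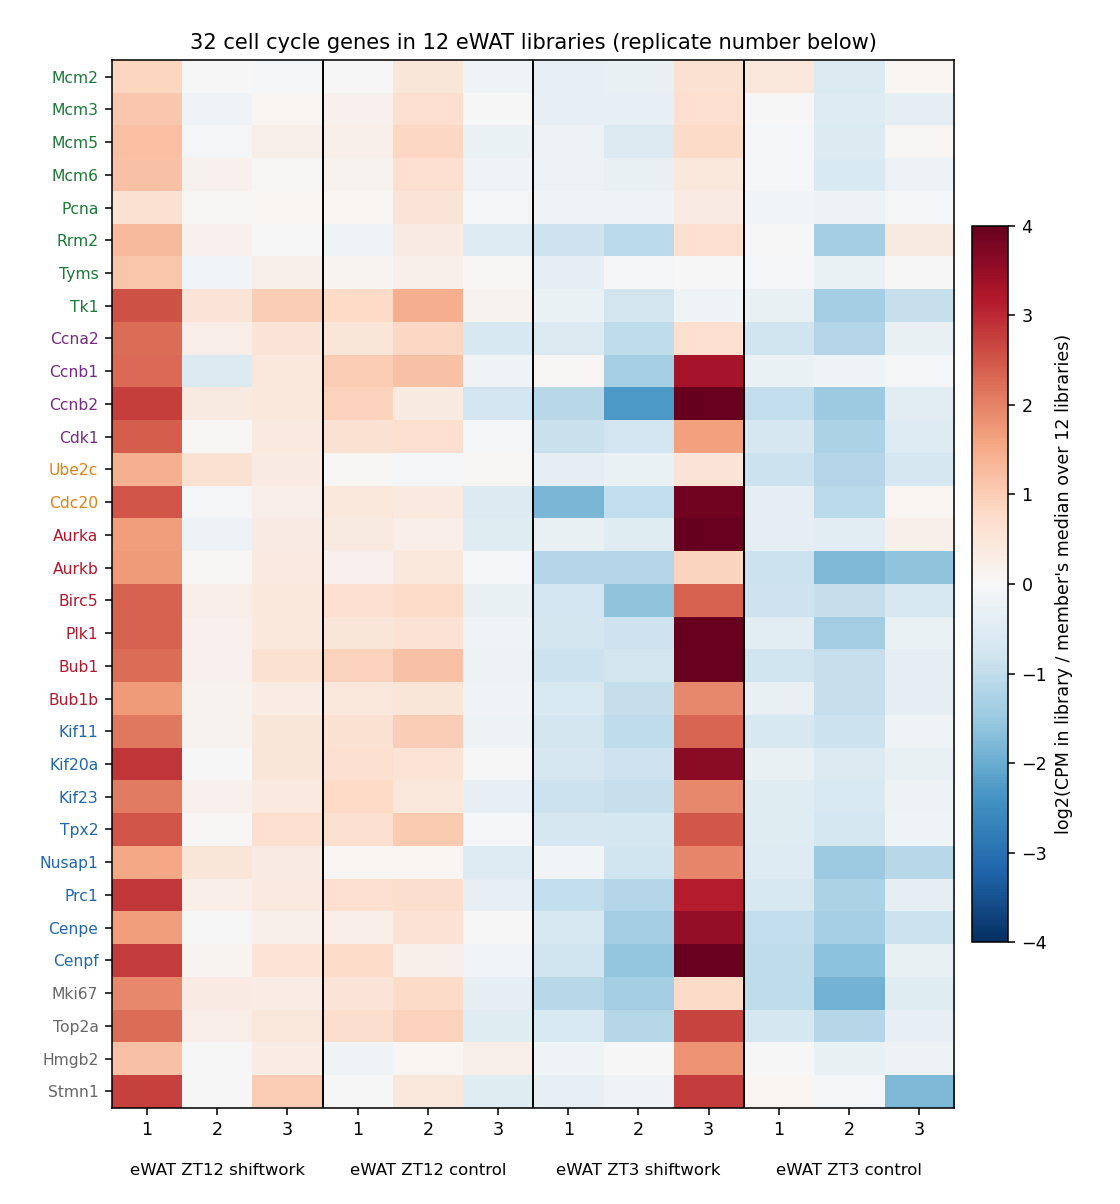
Log2 of each gene's CPM over its median across the 12 eWAT libraries, with genes in rows ordered by role and libraries in columns by group. The scale is limited to 4 in either direction, so that ratios above it share the darkest red. ZT12 shiftwork replicate 1 is red in all rows and ZT3 shiftwork replicate 3 is red mainly in the mitotic rows, and the other ZT3 libraries are mostly blue.

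At ZT3 in eWAT, 30 of the 32 genes had a positive log2 fold change of shiftwork over control, against 56.9% of all genes, and 2 a negative one, but none passed the test (edgeR quasi-likelihood test, Benjamini-Hochberg adjusted p under 0.05 over 15141 genes). No gene of the whole table was called in this comparison, a background of 0%. At an unadjusted p under 0.05, 8 members were higher and 0 lower, against 12.8% of all genes higher and 6.05% lower. The median log2 fold change was 1.33 over the members and 0.06 over all genes. DESeq2 called 662 genes in this comparison and 0 of the members. By role, the median was 0.18 for S phase genes, 2.20 for mitotic kinases and checkpoint genes and 2.04 for kinesin, spindle and kinetochore genes.

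These differences rested on 1 library. Without ZT3 shiftwork replicate 3, 12 members were above 0 and 20 below, against 48.5% of genes above 0, and the median was -0.09. Bub1 had a log2 fold change of 3.92 ± 1.37 (SE) with the library and -0.01 ± 0.61 (SE) without it, at adjusted p = 0.217 and 0.992 in edgeR's quasi-likelihood test. Ube2c, the ubiquitin-conjugating enzyme of the anaphase-promoting complex, was the only member whose groups did not overlap, against a background of 5.36% of genes higher without overlap. It stood at 5.67, 6.07 and 10.5 CPM in ZT3 shiftwork eWAT, against 4.01, 3.24 and 4.57 CPM in ZT3 control eWAT. Its log2 fold change was 0.89 ± 0.29 (SE; adjusted p = 0.214) with all libraries and 0.66 ± 0.27 (SE; adjusted p = 0.169) without replicate 3, in edgeR's quasi-likelihood test. Leaving out, besides that library, the 2 control libraries with vas deferens markers gave 20 members above 0 and 12 below with a median of 0.11, with 1 control library left.

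At ZT12 in eWAT, all 32 genes had a positive log2 fold change of shiftwork over control and none passed the test, where the background was again 0% of 15141 genes. The median was 0.66 over the members and close to 0 over all genes, of which 49% were above 0. At an unadjusted p under 0.05, 1 member (Ube2c) was higher, against 1.6% of genes, and DESeq2 called 12 genes and 0 members. The groups did not overlap for Ube2c and for Nusap1, a microtubule-binding spindle protein, against 8.53% of genes higher without overlap. Ube2c stood at 19.5, 11 and 9.17 CPM in ZT12 shiftwork eWAT, against 7.49, 7.10 and 7.43 CPM in ZT12 control eWAT. Its log2 fold change was 0.79 ± 0.28 (SE), with adjusted p = 1 in edgeR's quasi-likelihood test. Nusap1 stood at 21.3, 10.3 and 9.22 CPM in ZT12 shiftwork eWAT, against 7.77, 7.79 and 5.17 CPM in ZT12 control eWAT. Without replicate 1, 9 members were above 0 and 23 below, against 44.8% of genes above 0, and the median was -0.12. The 9 were Ube2c, Nusap1, Stmn1, Rrm2, Hmgb2, Ccnb2, Ccna2, Aurkb and Cenpf. They were above 0 in all 21 alternative settings, but the setting that picked them is among the 21, so this is no separate support. Their lowest values over the settings came down to 0.000123 for Cenpf, 0.019 for Aurkb, 0.030 for Ccna2 and 0.046 for Ccnb2.

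In control eWAT all 32 genes had a positive log2 fold change of ZT12 over ZT3, against 48.7% of all genes, and for 17 of them every ZT12 library was above every ZT3 library, against 16% of all genes. The median log2 fold change was 0.97 over the members, with a range of 0.15 to 1.74, and -0.01 over all genes. None passed the test, against a background of 2.93% of 15141 genes called higher and 0.766% called lower, and 4 members had an unadjusted p under 0.05, all higher (Ube2c, Tk1, Aurkb and Mki67), against 13% of genes. The 17 without overlap were 3 of the 8 S phase genes, 1 of 4 cyclins and their kinase, 1 of 2 exit genes, 5 of 6 mitotic kinases and checkpoint genes, 6 of 8 kinesin, spindle and kinetochore genes and 1 of 4 others.

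Tk1 had the largest fold change. It stood at 2.57, 4.08 and 1.63 CPM in ZT12 control eWAT, against 1.20, 0.577 and 0.786 CPM in ZT3 control eWAT, with no overlap. Its log2 fold change was 1.74 ± 0.54 (SE), with adjusted p = 0.0947 in edgeR's quasi-likelihood test. Aurkb, the kinase of the chromosomal passenger complex, stood at 5.56, 6.63 and 4.71 CPM in ZT12 control eWAT, against 2.74, 1.42 and 1.62 CPM in ZT3 control eWAT. The groups did not overlap, and the log2 fold change was 1.61 ± 0.57 (SE), with adjusted p = 0.132 in the same test. Mki67 stood at 55.2, 64.9 and 29.6 CPM in ZT12 control eWAT, against 18.8, 10.4 and 27.6 CPM in ZT3 control eWAT, and Ube2c at 7.49, 7.10 and 7.43 CPM, against 4.01, 3.24 and 4.57 CPM. Mki67 came close to overlap, with the lowest ZT12 library just above the highest ZT3 library, while the 3 Ube2c values at ZT12 lay close together. Cenpe, the kinesin that moves chromosomes along the spindle, stood at 7.77, 9.74 and 6.39 CPM in ZT12 control eWAT, against 3.28, 2.58 and 3.54 CPM in ZT3 control eWAT, again with no overlap.

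All 12 libraries share 1 estimate of the spread in this test, and other fits gave other counts. With the 6 control libraries alone, edgeR's quasi-likelihood test called 3 members higher, against 3.68% of 14288 genes: Aurkb (adjusted p = 0.0377), Cenpe (adjusted p = 0.0324) and Ube2c (adjusted p = 0.042). The same 3 were called when only ZT3 shiftwork replicate 3 was left out, at adjusted p = 0.0277, 0.0425 and 0.0295, against 9.35% of genes called higher. DESeq2 called 2 members higher, Tk1 (adjusted p = 0.0372) and Ube2c (adjusted p = 0.0304), against 5.52% of genes. Without ZT3 control replicate 2, the lowest library for 18 of the 32, 30 members were above 0 and 2 below. Without the 2 control libraries with vas deferens markers and the library with testis transcripts, 31 members were above 0 and 1 below, with a median of 1.16 and 1 ZT3 control library left.

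In shiftwork eWAT the same comparison of times turned on the library with testis transcripts. With all libraries, 22 members had a positive log2 fold change of ZT12 over ZT3, against 46.4% of genes, and 10 a negative one, with a median of 0.25. None passed the test, where the background was 0% of genes, and 3 members were higher at an unadjusted p under 0.05, against 5.81% of genes. The groups did not overlap for 1 member, Tk1, against 10.2% of genes higher. Tk1 stood at 8.57, 2.12 and 2.90 CPM in ZT12 shiftwork eWAT, against 1.22, 0.88 and 1.32 CPM in ZT3 shiftwork eWAT, and its log2 fold change was 1.97 ± 0.54 (SE), with adjusted p = 0.28 in edgeR's quasi-likelihood test and 0.0495 in DESeq2. The replication genes were all above 0 (8 of 8, median 0.53), and the mitotic kinases and checkpoint genes were split, with 3 of 6 above 0 and a median of -0.40.

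Without ZT3 shiftwork replicate 3, all 32 genes had a positive log2 fold change in shiftwork eWAT, against 50.7% of genes, with a median of 1.93, and 30 had no overlap, against 29.2% of genes with 3 libraries set against 2. None passed the test, and 23 were higher at an unadjusted p under 0.05, against 9.83% of genes. Bub1 had a log2 fold change of -1.95 ± 1.25 (SE) with the library and 1.98 ± 0.63 (SE) without it. Without ZT12 shiftwork replicate 1 as well, all 32 remained above 0 with a median of 1.0. The difference between schedules in the effect of time, the interaction, called 0 members and 0% of genes in edgeR's quasi-likelihood test. At an unadjusted p under 0.05 it had 0 members, against 10.1% of genes, and DESeq2 called 0 members too. With all libraries 5 members were above 0 and 27 below, against 42.9% of genes above 0. Without ZT3 shiftwork replicate 3, 31 were above 0 and 1 below, against 51.9%. Without ZT12 shiftwork replicate 1, 1 was above 0 and 31 below, against 42.2%, and without both libraries 16 were above and 16 below, against 50.6%.

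**Figure D4:**
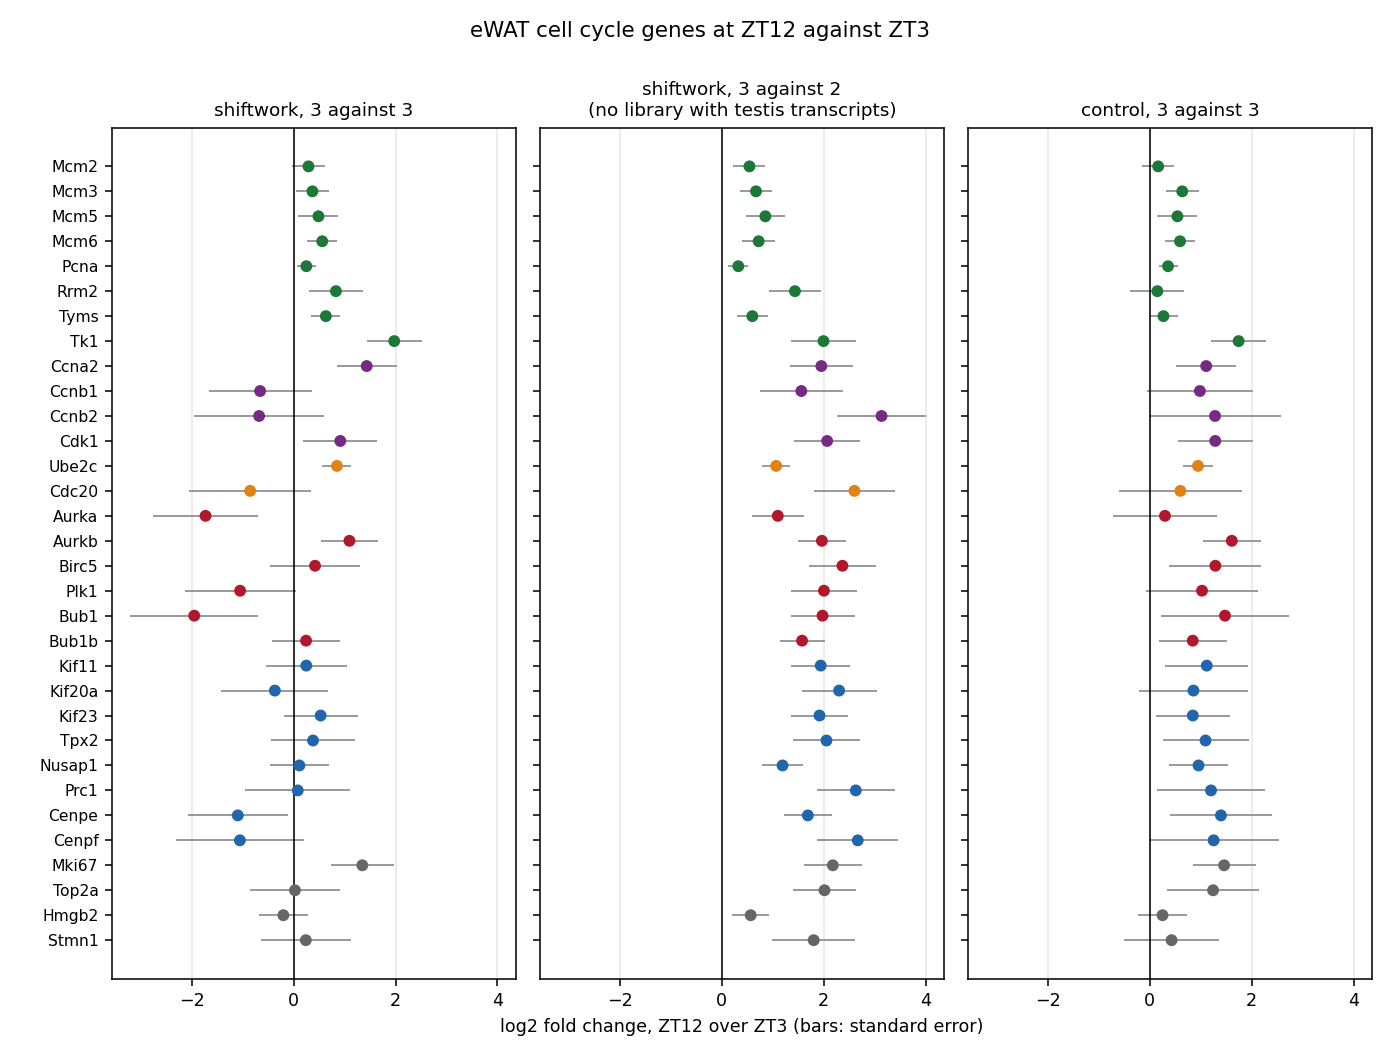
Log2 fold change of ZT12 over ZT3 for the 32 genes in eWAT, with bars of 1 standard error. The left panel has the 6 shiftwork libraries, the middle panel the 5 without the library with testis transcripts, and the right panel the 6 control libraries. Points spread to both sides of 0 on the left (22 above, 10 below) and lie above 0 for all 32 genes in the other 2 panels.

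The summed level of macrophage markers was 2575, 1488 and 1296 CPM at ZT12 and 1218, 693 and 1009 CPM at ZT3 in shiftwork eWAT, and 1765, 2070 and 1196 CPM at ZT12 and 772, 800 and 731 CPM at ZT3 in control eWAT. In control mice, 10 of 10 listed macrophage markers were above 0, with a median log2 fold change of 1.25. Of these, 9 were higher without overlap, against 16% of all genes, and 1 was called, against 2.93% of all genes called higher. Summed endothelial markers ranged over 848 to 1115 CPM at ZT12 and 704 to 851 CPM at ZT3 in control eWAT. Adipocyte progenitor markers ranged over 303 to 414 CPM at ZT12 and 249 to 369 CPM at ZT3. B cell markers were lower at ZT12 in control eWAT, with 9.84, 11.8 and 13.4 CPM at ZT12 and 44.5, 39.9 and 72.4 CPM at ZT3, and T cell markers ranged over 44.5 to 59.9 CPM at ZT12 and 31.7 to 55.8 CPM at ZT3. The part of any of these cell types in the levels of the 32 genes was not tested.

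In iWAT at ZT3, 14 members were above 0, against 51.8% of genes, and 18 below in shiftwork over control, with a median log2 fold change of -0.11, and none passed the test (limma, adjusted p under 0.05 over 16441 genes). No gene of the table was called, a background of 0%, and 0 members had an unadjusted p under 0.05, against 6.59% of genes. The groups overlapped for all 32, while 4.04% of genes were higher and 6.61% lower without overlap. In the authors' deposited table of the same comparison, 426 of 29819 genes had an adjusted p under 0.05 and 0 of the 32 members did. The edgeR test on recovered reads gave 9 members above 0 and 23 below and called none.

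The spread lay within the control group. Control replicate 2 was the highest of the 6 iWAT libraries for 28 members and control replicate 3 the lowest for 23. Relative to the other 2 controls, replicate 2 had a median ratio of 2.69, with 25 of 32 above 2-fold, against 9.26% of genes, and replicate 3 was below its 2 replicates for all 32, with a median of 0.336. Control replicate 1, which also carried lymph node transcripts, had a median ratio of 0.814, with 2 of 32 above 2-fold, against 2.201% of genes. Mcm6 stood at 23.9, 24.5 and 42 CPM in shiftwork iWAT, against 33.6, 61.4 and 18.9 CPM in control iWAT. Top2a stood at 10.9, 12.1 and 19.8 CPM in shiftwork iWAT, against 18.2, 38 and 6.98 CPM in control iWAT. For both genes the 3 shiftwork libraries lay inside the range of the controls. Summed B cell markers were 21, 55.7 and 7.36 CPM in shiftwork iWAT, against 1324, 2133 and 25.5 CPM in control iWAT, and T cell markers 89.3, 72.7 and 166 CPM, against 481, 860 and 63.4 CPM. The part of lymph node cells in the levels of the 32 genes was not tested.

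Without control replicates 1 and 2, 29 members were above 0, against 53.6% of genes, and 3 below, with a median of 0.90, and 24 were higher in every shiftwork library than in the remaining control, against 27.7% of 17609 genes. With 1 control library left, no test is read from this fit. Cdk1, the kinase of mitotic entry, is an example picked from it after its values were seen. It stood at 6.80, 7.25 and 7.12 CPM in shiftwork iWAT, against 4.62, 10.4 and 3.21 CPM in control iWAT. Its log2 fold change was 0.54 ± 0.42 (SE; limma adjusted p = 0.721) against all 3 controls and 1.10 ± 0.32 (SE) against the remaining control. The lone control is assumed to vary like the shiftwork libraries in this fit.

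**Figure D5:**
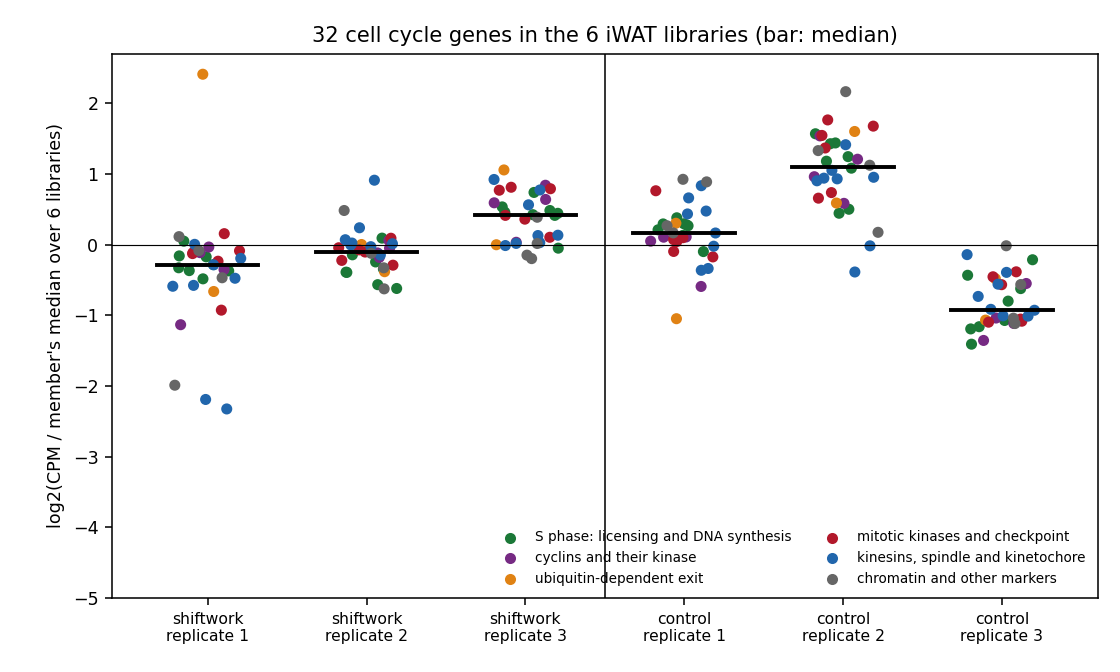
Log2 of each gene's CPM over its median across the 6 iWAT libraries, with 1 point per gene coloured by role and a bar at the median of the 32. The medians were -0.28, -0.11 and 0.42 in the shiftwork libraries, against 0.17, 1.10 and -0.92 in the control libraries.

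A few members departed from the others in iWAT. Hmgb2 had the lowest log2 fold change of shiftwork over control, -1.08, and stood at 0.867, 0.596 and 0.929 CPM in shiftwork iWAT, against 1.74, 4.12 and 0.909 CPM in control iWAT, with overlap at control replicate 3. Ube2c stood at 35.2, 6.62 and 6.61 CPM in shiftwork iWAT, against 3.20, 9.95 and 4.74 CPM in control iWAT, and shiftwork replicate 1 alone was high. That library also held 41268 CPM of skeletal muscle markers. Mki67, Cenpf and Cenpe, whose listed lengths of 10.1, 11.1 and 7.77 kb are the greatest of the 32, were low in it. Mki67 stood at 3.13, 17.4 and 10.8 CPM in shiftwork iWAT, against 23, 14 and 8.41 CPM in control iWAT. Cenpf stood at 0.367, 1.93 and 1.86 CPM in shiftwork iWAT, against 2.55, 1.81 and 0.974 CPM in control iWAT. For Mki67, Cenpf and Cenpe control replicate 2 was not the highest library either, with ratios of 0.893, 1.03 and 0.569 to the other 2 controls. The next in length did not share this. Prc1, at 7.71 kb nearly as long as Cenpe, had a ratio of 2.89 there, and Top2a, at 5.53 kb, had 3.02. Over all genes of at least 8 kb, shiftwork replicate 1 had a median log2 ratio to the median library of -0.15, against -0.09 for genes under 2 kb. In control replicate 1, the highest library for Mki67 and Cenpf, it was 0.27 for genes of at least 8 kb, against 0.06 for genes under 2 kb, and in the other 4 libraries genes of at least 8 kb had -0.12 to 0.07. The part of length was not tested.

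Other cell cycle genes, 58 genes outside the 32 grouped as G1 cyclins and kinases, inhibitors, transcription factors, replication origin genes and mitosis genes, were examined in the same fits. In control eWAT at ZT12 against ZT3, 2 of 58 were called higher and 0 lower (edgeR quasi-likelihood test, adjusted p under 0.05 over 15141 genes), against 2.93% and 0.766% of all genes, so the count of called genes was near the background. Of the 58, 22 were higher without overlap and 4 lower, against 16% and 15% of all genes. Both called genes are E2F factors. E2f1, an activator of S phase genes, stood at 17.2, 18.8 and 17.4 CPM in ZT12 control eWAT, against 9.34, 8.84 and 7.22 CPM in ZT3 control eWAT. Its log2 fold change was 1.11 ± 0.16 (SE), with adjusted p = 0.0168, and over 21 alternative settings it ran from 0.87 to 1.20 with adjusted p of 1.39e-08 to 0.0928, under 0.05 in 18 of them. E2f7, a repressor of S phase genes, had a log2 fold change of 1.24 ± 0.22 (SE), with adjusted p = 0.0218, and was called in 13 of the 21, with adjusted p up to 0.127. The fit without the library with testis transcripts is counted again among the 21, as a single library left out. Ccnd1, the D-type cyclin of G1, had the next smallest p among the 58. It stood at 69.4, 66.0 and 40.2 CPM in ZT12 control eWAT, against 195, 47.5 and 159 CPM in ZT3 control eWAT, with the high values in the 2 libraries with vas deferens markers.

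E2f1 in shiftwork eWAT stood at 20.5, 16.2 and 15.6 CPM at ZT12, against 11.6, 12.4 and 11.5 CPM at ZT3, again without overlap, with a log2 fold change of 0.55 ± 0.16 (SE) and adjusted p = 0.28 in edgeR's quasi-likelihood test and 0.0495 in DESeq2. The library with testis transcripts was not set apart in E2f1. Foxm1, the activator of G2 and M phase genes and picked out after its values were seen, had 3.78, 3.20 and 84.8 CPM in ZT3 shiftwork eWAT, against 4.47, 4.18 and 4.32 CPM in ZT3 control eWAT, and there replicate 3 alone was high.

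At ZT3 in shiftwork over control eWAT, 49 of the 58 were above 0, against 56.9% of all genes, and none was called by edgeR. At an unadjusted p under 0.05, 23 were higher and 3 lower, against 12.8% and 6.05% of all genes, and DESeq2 called 1 higher and 2 lower, against 1.18% and 1.97%. These counts include the library with testis transcripts. In ascending order, the mitosis genes among the 58 summed to 71.3, 84.4 and 631 CPM in the shiftwork libraries, against 51.7, 77.8 and 94.2 CPM in the controls. The replication origin genes summed to 112, 117 and 272 CPM, against 95.5, 125 and 138 CPM. The G1 cyclins and kinases had no single high library, with 804, 965 and 972 CPM, against 843, 870 and 900 CPM. The smallest p-values belonged to E2f7 (log2 fold change 0.95 ± 0.22 SE, adjusted p = 0.194), Cdkn1a (-1.72 ± 0.47 SE, adjusted p = 0.198) and Cdk2 (0.46 ± 0.14 SE, adjusted p = 0.208) in edgeR's quasi-likelihood test. In ZT12 shiftwork over control eWAT they belonged to E2f2, Cdc25b and Cenpa, with log2 fold changes of 0.65, 0.58 and 0.86 and adjusted p = 1 for each in the same test. In iWAT they belonged to Cdkn1a, Anln and Cdc25b, with log2 fold changes of 1.33 ± 0.29, 0.92 ± 0.27 and -0.84 ± 0.25 (SE) and adjusted p = 0.691 for each in limma. In shiftwork eWAT at ZT12 against ZT3 they belonged to E2f1, Cenpa (1.31 ± 0.42 SE) and Cdc25b (0.65 ± 0.25 SE), each with adjusted p = 0.28 in edgeR's quasi-likelihood test. In the interaction they belonged to E2f7, E2f2 and Rbl1, with log2 values of -1.06, 1.06 and -0.62 and adjusted p = 0.423, 0.448 and 0.478 in the same test.

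Cdkn1a encodes p21, an inhibitor of cyclin-dependent kinases. It stood at 82.7, 87.2 and 72.4 CPM in ZT12 shiftwork eWAT, against 53.9, 91.7 and 104 CPM in ZT12 control eWAT, where the groups overlapped. At ZT3 it stood at 42.9, 71.8 and 38.1 CPM in shiftwork eWAT, against 70.5, 210 and 218 CPM in control eWAT. Only 1 shiftwork library, replicate 2, passed the lowest control there. In iWAT it stood at 73.4, 115 and 99.9 CPM in shiftwork libraries, against 35.4, 65.0 and 31.3 CPM in control libraries. The groups did not overlap there, as was so for 4.04% of all genes that were higher in shiftwork iWAT.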

How the data were processed

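RNA of 18 fat samples was sequenced in single reads of 51 cycles, per the labels' protocols. Tools named in the submitters' processing notes are edgeR, limma, DESeq2, HTSeq and STAR, with builds mm10 and GRCm38, and the strand used for counting is not given in the sources used here, so antisense and overlapping transcripts cannot be told apart. For eWAT the authors deposited whole-number read counts and log2 FPKM. The iWAT table deposited as read counts holds signal scaled by a factor per library, and whole reads were recovered from it (100% of 310956 values within 0.001 reads). The authors also deposited RPKM for iWAT, and log2 fold changes with p-values of their own comparison.

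eWAT counts were fitted with edgeR 4.0.16 (R 4.3.3; TMM, robust quasi-likelihood, filterByExpr with minimum count 10 and total 15) over all 12 libraries. Scaled iWAT signal was fitted with limma 3.58.1 (trend, robust) on log2(value + 1). DESeq2 1.42.0 was an alternative. P-values were Benjamini-Hochberg adjusted over all genes tested. Fits were tested on simulated data with the same spread for all genes and no outlying library. The members had libraries far above their replicates, so that simulation does not cover them. Copies of libraries were looked for, and none was found (chi-square per gene 19.2 or more between replicates). Promoter sequences and positions are RefSeq's, on GRCm38.p6. The members, gene lists and tests were chosen with earlier results of these data known. One item is not reported here. All 32 members are named, and of the other 58 genes the 3 with the smallest p in each comparison and Cdkn1a, besides Foxm1, which was chosen after its values were seen. Alternatives were other scalings, filters, pseudocounts, tools, a replicate block, and leaving out libraries.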

Additional observations from a re-analysis of the deposited data

Results flagged for a closer look

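In 7 of the genes named above, all 3 shiftwork libraries lay on 1 side of the control mean in eWAT at ZT3 and all 3 on the other side in iWAT at ZT3, on log2(CPM + 0.1). The 2 depots were scaled separately, the difference between them was not tested, and none of the 14 values passes the adjusted test of the report in its own depot. For Cdkn1a the log2 fold change of shiftwork over control was -1.72 in eWAT and 1.33 in iWAT, and for Cdk2 it was 0.46 in eWAT and -0.35 in iWAT. These 2 genes kept both directions in all 21 alternative settings of eWAT and all 14 of iWAT. The eWAT range was -2.12 to -1.45 for Cdkn1a and 0.29 to 0.55 for Cdk2, and the iWAT range 1.15 to 1.63 for Cdkn1a and -0.49 to -0.06 for Cdk2. DESeq2 called Cdkn1a in eWAT (adjusted p = 0.00976).

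The other 5 turned in at least 1 depot when libraries were left out. Tk1 had 0.42 in eWAT and -0.12 in iWAT, but 1.23 in iWAT without the 2 controls with lymph node transcripts. Nusap1 had 1.76 in eWAT and -0.24 in iWAT, but 0.65 in eWAT without the library with testis transcripts and 0.20 in iWAT without the same 2 controls. Rbl1 had 0.49 in eWAT and -0.26 in iWAT, but 0.18 in iWAT without these controls. Ccnd1 had -1.09 in eWAT and 0.42 in iWAT, but -0.05 in eWAT without the 3 libraries with testis or vas deferens markers and -0.08 in iWAT without control replicate 3. Cdc25b had 0.11 in eWAT and -0.84 in iWAT, but -0.15 in eWAT without ZT3 control replicate 2.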

How the results depend on the processing

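No member was called in any comparison by the fits of the report, so none could change sign as a called gene. Signs of members that were not called did change. For Bub1 in shiftwork eWAT at ZT12 against ZT3, the log2 fold change ran from -2.80 to 1.98 over the alternatives. In control eWAT at ZT12 against ZT3 the number of members called was 2 with DESeq2, 3 with the compared groups alone, 3 without the library with testis transcripts, and 0 to 3 when single libraries were left out. It was 17 without ZT3 shiftwork replicate 3 and ZT12 shiftwork replicate 1 together, a setting added after seeing the data, under which 9.66% of all genes were called higher. These 2 libraries were left out because the members stood highest there, which lowers the estimated spread of exactly these genes. DESeq2 called 1 member, Tk1, in shiftwork eWAT between times.

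The number of all genes called in control eWAT between times, 559, was 2214 with DESeq2, 298 with the replicate block, 320 with no filter, 2744 without the library with testis transcripts, 2700 without the 2 highest libraries and 1 to 2744 when single libraries were left out. It was 1, 4 and 121 without ZT12 control replicates 1, 2 and 3, and 173, 1208 and 3 without ZT3 control replicates 1, 2 and 3. It was 144 and 155 without ZT12 shiftwork replicates 2 and 3, and 276 and 2744 without ZT3 shiftwork replicates 1 and 3. The other comparisons called 0 genes. With DESeq2 they called 662 (shiftwork at ZT3), 12 (shiftwork at ZT12), 296 (shiftwork between times) and 192 (interaction). Without the library with testis transcripts they called 1 (shiftwork at ZT3) and 15 (interaction), and without the 2 highest libraries 2, 12 (interaction) and 1 (shiftwork between times). Without the 3 libraries with testis or vas deferens markers they called 9 (shiftwork at ZT3), 75 (shiftwork between times) and 7 (interaction). Leaving out single libraries gave 0 to 403 at ZT3, 0 to 186 in the interaction and 0 to 849 in iWAT, with 403 and 186 without ZT3 control replicate 2 and 849 without iWAT control replicate 3. The cause was not tested.

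With the replicate number as a block, 0 members were called in each comparison. Deviations of samples with the same number correlated over 0.1 in some pairs only, so the numbers are not taken to pair the samples.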
